A study of Mus musculus with 2 samples.

Results

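The Slc22 and Slco genes encode membrane carriers that take organic cations, anions and zwitterions into cells, and those of hepatocytes bring drugs, bile salts, steroid conjugates and carnitine in from the blood. They were chosen by name, as all spots that are not controls in both scanner files and whose gene name is Slc22a or Slco followed by the number of a member. This gave 40 genes, 25 of Slc22 and 15 of Slco, read by 48 probes, out of 30175 gene names and 39429 probes of the array. The hepatic uptake carriers of both families are known from the sinusoidal membrane of hepatocytes. The Slc22 family holds the organic cation transporters (OCT), the carnitine transporters (OCTN) and the organic anion transporters (OAT), and the Slco family holds the organic anion transporting polypeptides (OATP).

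RNA of 2 cell preparations was compared, with 1 array each. Mature hepatocytes (MHs) came from healthy livers and were purified on a Percoll gradient. Sox9+EpCAM- cells, which the study calls biphenotypic hepatocytes, were sorted by FACS as GFP+ EpCAM- cells from livers injured by a diet with DDC (3,5-diethoxycarbonyl-1,4-dihydro-collidine), a porphyrinogenic compound that damages bile ducts. Both preparations came from Sox9-EGFP mice, per the methods, and the labels give both as male. The labels and methods give neither the age nor the number of the mice for these arrays. A legend gives 2 weeks on the diet for sorted cells, without saying whether this holds for the arrays too. GFP in these mice marks all cells with Sox9 expression, cholangiocytes included, so the gate rests on EpCAM to leave these out.

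With 1 array per group there is no replicate and no test, and each value below describes these 2 arrays. The scanner software marked 27523 of 43020 non-control spots as well above background for MHs and 32158 for Sox9+EpCAM- cells. Each array was scaled to its 75th percentile of intensity, 741 for MHs and 1110 for Sox9+EpCAM- cells. A probe of equal intensity on both arrays therefore has a log2 difference of -0.58 after scaling. All differences are Sox9+EpCAM- minus MH on this scale, and the call is a 4-fold difference, 2 on the log2 scale. Spots of the same probe, printed at least 8 times, had a median SD of 0.08 on the log2 scale on either array, which covers the spread within an array only.

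The labels were checked against marker genes. Sox9 itself read 8.87 in MHs, not well above background, and 60.7 in the Sox9+EpCAM- sample, at least 1.45-fold higher. The 10 hepatocyte markers were all detected in both samples, with a median log2 difference of -1.06. Of these, 3 were at least 4-fold lower in the Sox9+EpCAM- sample, against 5.57% of all genes. Epcam was nevertheless 13.3-fold higher in the Sox9+EpCAM- sample, and Col3a1, a fibroblast collagen, was 85.1-fold higher. Of 8 Kupffer cell and leukocyte markers, 4 were at least 4-fold lower there and 1 higher, against 5.57% and 5.59% of all genes. Their summed level relative to the 75th percentile was 41.2 in MHs and 15.7 in the Sox9+EpCAM- sample. The same sum went from 2.27 to 48.9 for 7 cholangiocyte markers, mostly through Spp1, whose intensity was 258 in MHs and 47000 in the Sox9+EpCAM- sample. The median log2 difference of these 7 was 0.53, with 0.42 for Krt19 and -0.23 for Krt7, and Cftr was lower, at 69.6 in MHs and 52.1 in the Sox9+EpCAM- sample. The sum went from 12.2 to 48.9 for 8 fibroblast and stellate cell markers and from 6.57 to 2.13 for 7 endothelial markers. Among the fibroblast and stellate cell markers, Lrat was at least 7.70-fold lower in the Sox9+EpCAM- sample, Des differed by 0.09 on the log2 scale and Pdgfrb was detected in neither sample. Xist, which is transcribed in females, read 1940 in MHs and 16.1, not well above background, in the Sox9+EpCAM- sample, while 4 of 4 Y-linked genes were detected in the Sox9+EpCAM- sample only. This goes against the label of the MH sample as male, and sex, diet and isolation cannot be told apart in any difference below. Nor can fewer cells of a type and less RNA per cell be told apart in such bulk samples.

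Of the 40 genes, 23 were detected, that is well above background, in both samples, 3 in MHs only, 1 in Sox9+EpCAM- cells only and 13 in neither. Among the 27 genes measured on at least 1 array, 10 were lower in Sox9+EpCAM- cells by 4-fold or more and 2 were higher by as much. Over all 23424 genes measured on at least 1 array, 5.57% were at least 4-fold lower and 5.59% at least 4-fold higher, against 37.0% and 7.41% of the Slc22 and Slco genes. The median log2 difference was -0.99 for the 26 members with a value, of which 3 are bounds, and -0.12 over all genes. Over the genes well above background on both arrays, which need no bound, the medians were closer, -0.51 for the 23 members and -0.19 for all genes, and became 0.21 and 0.53 when the arrays were scaled to 5 genes of secreted proteins. At a threshold of 2-fold, 13 members were lower and 3 higher, against 16.7% and 14.2% of all genes, and at 10-fold 1 was lower and 0 higher, against 1.47% and 1.55%. Other solute carriers, 251 genes named Slc outside these families, had 8.37% of genes at least 4-fold lower and 7.17% higher, with a median of -0.32.

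**Figure D1:**
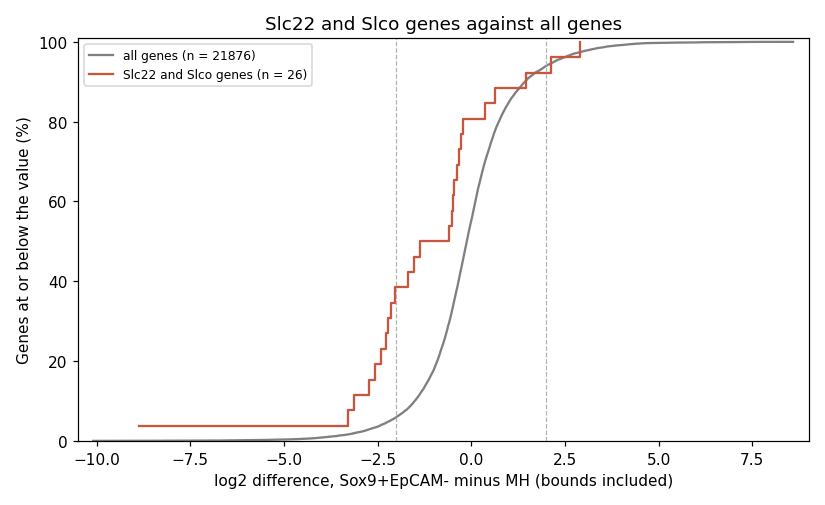
Cumulative share of genes (percent, vertical axis) at or below each log2 difference, Sox9+EpCAM- minus MH (horizontal axis), for all genes with a value (grey) and for the 26 Slc22 and Slco genes with a value (red), with dashed lines at a 4-fold difference. The red line lies above the grey one in the lower range, as 10 members are at -2 or below and 2 at 2 or above.

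The organic anion transporters of Slc22 held the gene with the lowest value of both families. Slc22a26, a member found in rodents, had an intensity of 9460 in MHs and 30.1 in the Sox9+EpCAM- sample. It was bright in MHs and just above the lowest detectable intensity, 18.4, in the other sample, which makes it 471-fold lower, or -8.88 on the log2 scale. Under normexp background correction the log2 difference was -7.09. Of all genes with a value, 0.0137% were as low as this or lower. The female-biased liver genes moved with it: of 11 such genes, 10 were at least 4-fold lower, against 5.57% of all genes. Their median log2 difference was -5.96, and their part in the result was not tested.

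Slc22a28 was read by 2 probes. The brighter had an intensity of 12300 in MHs and 2770 in the Sox9+EpCAM- sample, a log2 difference of -2.73. The dimmer had 993 and 83.2, a difference of -4.16. Both were higher in MHs, and the probes disagreed in size by 1.43. Slc22a30 had intensities of 2530 in MHs and 814 in the Sox9+EpCAM- sample, 4.66-fold lower. Slc22a29 read 73.1 in MHs and was not detected, at 4.74, in the Sox9+EpCAM- sample, which makes it at least 5.95-fold lower. Slc22a20, first described in olfactory tissue, had 174 and 63.3, a difference of -2.04 that lies at the edge of the 4-fold call.

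The other organic anion transporters stayed within 4-fold, and the small negative differences of Slc22a6, Slc22a7, Slc22a12 and Slc22a13 turned positive when scaled to the 5 secreted protein genes, which raises every gene by 0.73. That of Slc22a12 did so under scaling to Gapdh as well. Slc22a7, the hepatic OAT2, had an intensity of 628 in MHs and 722 in the Sox9+EpCAM- sample, a log2 difference of -0.38. Slc22a13, a carrier of nicotinate and urate, had 208 and 247, a difference of -0.34. Slc22a6, the para-aminohippurate carrier of the kidney, had 44.2 and 54.2, and Slc22a12, the renal urate exchanger, 67.3 and 86.9, so both were dim on the 2 arrays. Their differences were -0.29 and -0.21. Slc22a14 was detected in the Sox9+EpCAM- sample only, with an intensity of 19.6, and has no fold, since this lies under the bound for the MH array. Slc22a8, Slc22a19, Slc22a22 and Slc22a27 were not well above background on either array. Slc22a27, with 26.3 in MHs, and Slc22a8, with 17.4 in the Sox9+EpCAM- sample, lay just under the lowest detected intensities of those arrays, 27.8 and 18.4.

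The carnitine and zwitterion transporters went both ways. Slc22a5 (OCTN2), the high-affinity carnitine transporter of the plasma membrane, had an intensity of 185 in MHs and 1210 in the Sox9+EpCAM- sample, 4.37-fold higher. Slc22a4 (OCTN1), which carries ergothioneine, had 756 and 255, 4.44-fold lower. These neighbours on the same chromosome differed in opposite directions, with log2 differences of 2.13 and -2.15, or 2.39 and -1.88 under scaling to Gapdh and 2.85 and -1.42 under scaling to the secreted protein genes. Slc22a21 (OCTN3), a carnitine carrier that lies between them, had 1640 and 3780, a log2 difference of 0.62. Slc22a16, a carnitine transporter known from testis, read 59.2 in MHs and 4.18, not well above background, in the other sample, and was at least 4.82-fold lower there.

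Slc22a15, a carrier of zwitterions, depended on the probe. The probe at chr3:101701089-101701148 (mm9, minus strand) had an intensity of 46.7 in MHs and 523 in the Sox9+EpCAM- sample, 7.48-fold higher. The probe at chr3:101663036-101663095 had 67.5 and 155, 1.53-fold higher. Both were higher in Sox9+EpCAM- cells, and only the first passes 4-fold, so the count of 2 higher members rests on it. The log2 differences of the probes were 2.29 apart, where the median range was 0.75 over the 4000 genes with several probes well above background on both arrays, and 39.7% of these had a range over 1.

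The organic cation transporters Slc22a2 and Slc22a3 were not well above background on either array. Of the Slc22 members without a settled substrate, Slc22a17, a proposed lipocalin receptor, read 105 in MHs and 114 in the other sample, a difference of -0.46 that turned to 0.26 under the secreted protein scaling. Slc22a18, an imprinted gene, had 1100 and 568, and Slc22a23 had 150 and 86.7. The last pair was lower by less than 4-fold, with differences of -1.54 and -1.37.

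**Figure D2:**
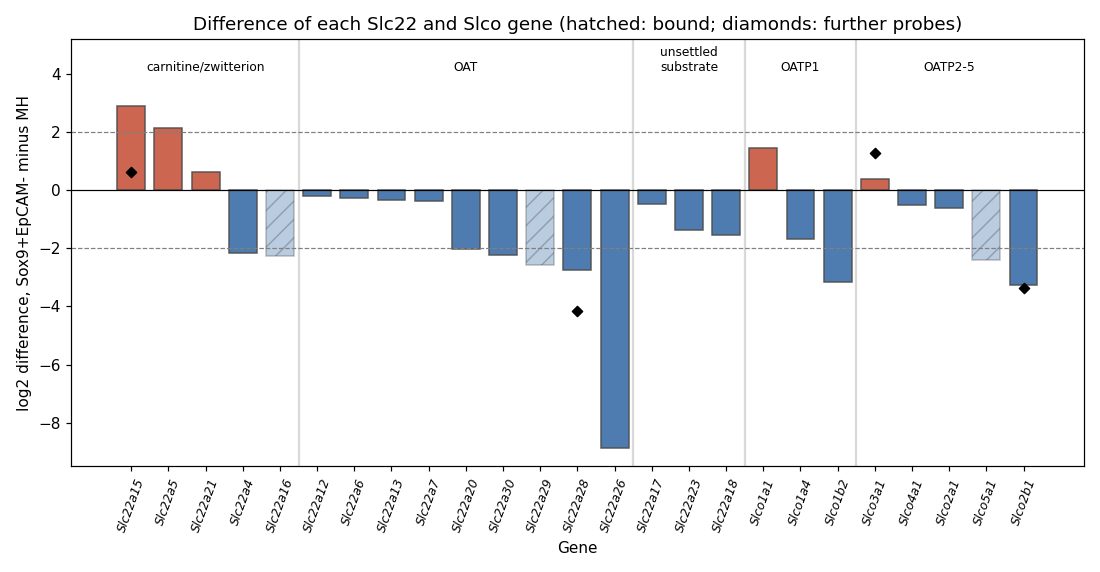
Log2 difference, Sox9+EpCAM- minus MH (vertical axis), of 25 Slc22 and Slco genes with a value, grouped by role, where hatched bars are bounds, diamonds are further probes of the same gene and dashed lines mark 4-fold. The bar of Slc22a26 reaches -8.88, and Slc22a15 and Slc22a5 alone pass 4-fold upwards.

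Among the OATP1 genes, which include the main sinusoidal carriers of bile salts and drugs, 3 of 6 were measured. Slco1b2, the mouse counterpart of the human liver OATP1B carriers of bilirubin and statins, had an intensity of 9330 in MHs and 1580 in the Sox9+EpCAM- sample, 8.85-fold lower. Slco1a4, which carries bile salts and digoxin, had 11100 and 5170, 3.22-fold lower. Slco1a1, a carrier of bile salts and steroid conjugates, had 113 and 462, 2.73-fold higher. It was the only one of the 3 that was higher in Sox9+EpCAM- cells. Mouse livers are known to hold more Slco1a1 RNA in males and more Slco1a4 RNA in females, and the Xist and Y-linked signals of the arrays differ with both genes. Of 6 other male-biased liver genes with a value, 3 were higher in the Sox9+EpCAM- sample, with no value or bound past 4-fold. The other 3 were lower, 2 of them by 4-fold or more, or 33.3% of the list against 5.57% of all genes. Hsd3b5, Elovl3 and Moxd1, of the same list, were not well above background on either array. Cyp4a12a and Cyp4a12b were detected in the Sox9+EpCAM- sample only, so that their folds are lower bounds. Their part in these differences was not tested. Slco1a5, Slco1a6 and Slco1c1, which is known from brain capillaries, were not well above background on either array.

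Slco2b1, a carrier of steroid sulfates, and Slco1b2 had the lowest values of the Slco genes, and their order depended on the background correction. The brighter probe of Slco2b1 had an intensity of 336 in MHs and 51.8 in the Sox9+EpCAM- sample, 9.72-fold lower, or -3.28 on the log2 scale. Under normexp correction the log2 difference was -2.29, against -3.07 for Slco1b2. The other probe had 334 and 48.8, 10.3-fold lower, but both probes share 38 bases and are no independent readings. Of the 8 Kupffer cell and leukocyte markers, whose summed level was lower as given above, 7 had a negative log2 difference and 1 a positive one. The difference was -6.43 for Clec4f and -4.33 for Emr1, both markers of Kupffer cells, -3.07 for Cd74, -2.64 for Lyz2, -1.80 for Tyrobp, -0.42 for Csf1r and -0.24 for Ptprc, and it was 3.85 for Cd68. The 6 endothelial markers with a value were lower as well, with a median log2 difference of -2.24, bounds included. The part of either cell type in the result was not tested.

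Slco2a1, the prostaglandin transporter, had an intensity of 573 in MHs and 563 in the Sox9+EpCAM- sample, a log2 difference of -0.61. Slco4a1, a carrier of thyroid hormone, had 221 and 232, a difference of -0.51. Under the secreted protein scaling these turned to 0.12 and 0.21. Slco3a1 was somewhat higher by both measured probes, with a difference of 0.38 from intensities of 126 and 245 and of 1.29 from 48.7 and 178, while its remaining probe was not well above background. Slco5a1 had 71.5 on the MH array and 20, not well above background, on the other, at least 5.36-fold lower. Its second probe was not well above background on either array. Slco4c1, Slco6b1, Slco6c1 and Slco6d1, the last 3 of a subfamily known from testis, were not well above background on either array.

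**Figure D3:**
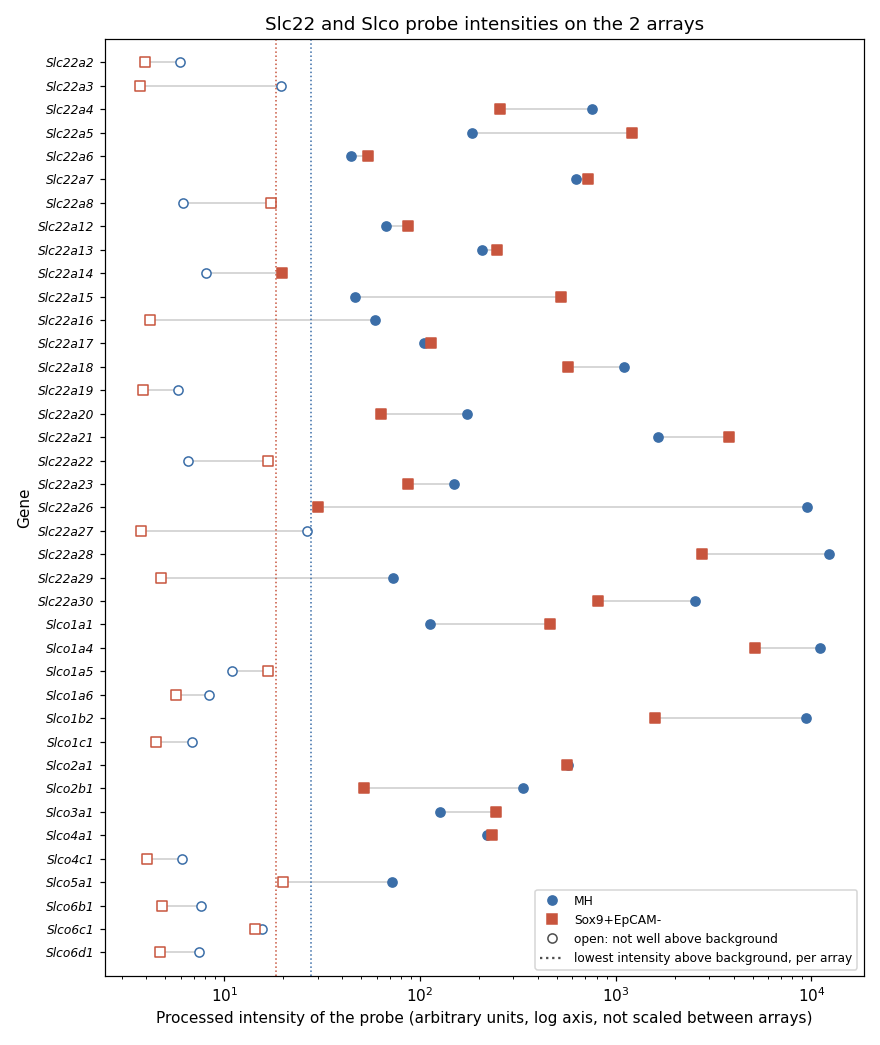
Processed intensity (horizontal log axis, arbitrary units, not scaled between arrays) of the probe that stands for each of 39 genes, on the MH array (blue circles) and the Sox9+EpCAM- array (red squares), with open symbols for probes not well above background and dotted lines at the lowest intensity above background on each array, 27.8 and 18.4. Intensities can be compared within a gene only, and 13 genes have open symbols on both arrays.

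Many of the genes are neighbours in the genome. With a gap under 1 Mb between the probes of neighbours, 27 of the 40 genes fell into 7 clusters on mm9. The largest, at chr19:7747661-8700927, holds 8 organic anion transporters. Of the 5 measured there, 4 passed the 4-fold line downwards, namely Slc22a26, Slc22a28, Slc22a29 and Slc22a30, where 5.57% of all genes did. The calls of Slc22a29 and Slc22a30 were lost under some of the other ways of processing. The one exception, Slc22a6, lies at the far end of the cluster and had a difference of -0.29. The cluster at chr6:141517875-142182908 holds the 6 OATP1 genes, in which Slco1b2 and Slco1a4 were lower and their neighbour Slco1a1 was higher. In the cluster at chr11:53678550-53796900, the order was Slc22a5, Slc22a21 and Slc22a4, with log2 differences of 2.13, 0.62 and -2.15. Each of the 48 probes has 60 bases. None shared an unbroken stretch of more than 10 bases with a probe of another member, or of more than 18 with a probe of any other gene. Probes were compared with probes only, not with transcripts, so whether a probe also reads a neighbouring gene was not tested.

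**Figure D4:**
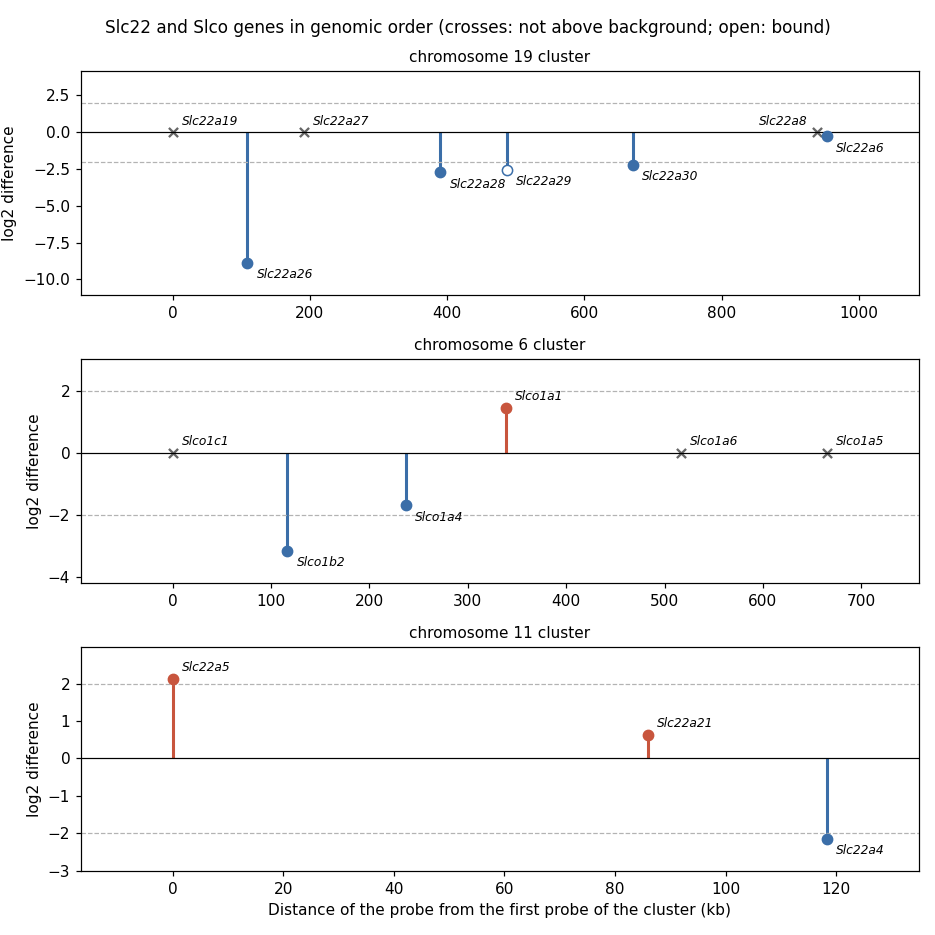
Log2 difference, Sox9+EpCAM- minus MH (vertical axes), against the distance of the probe from the first probe of its cluster in kb (horizontal axes), for the clusters on chromosomes 19, 6 and 11, with crosses for genes not well above background, an open circle for a bound and dashed lines at 4-fold. The chromosome 19 values shown lie at or below -0.29, while the clusters shown for chromosomes 6 and 11 hold values of both signs. A smaller chromosome 19 cluster, of Slc22a20 with -2.04 and Slc22a12 with -0.21, is not shown.

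Sequences upstream of the transcript starts were read from RefSeq on GRCm38.p6, a later build than the mm9 of the probe positions, and the table held an entry for 35 of the 40 genes and none for Slc22a7, Slc22a21, Slco3a1 and Slco5a1, among others. Within the chromosome 19 cluster, the 250 bases before the starts of Slc22a28 and Slc22a30 were 95.2% identical. The other 27 pairs of the cluster lay between 45.6% and 70%. Slc22a28 and Slc22a30 had log2 differences of -2.73 and -2.22, but the dimmer probe of Slc22a28 had -4.16. Both windows are on the minus strand, at chr19:8131983-8132232 and chr19:8405106-8405355, and are shown because these members of the cluster were both lower. Capitals mark the 12 bases of each that have no identical partner in the alignment.
Slc22a28: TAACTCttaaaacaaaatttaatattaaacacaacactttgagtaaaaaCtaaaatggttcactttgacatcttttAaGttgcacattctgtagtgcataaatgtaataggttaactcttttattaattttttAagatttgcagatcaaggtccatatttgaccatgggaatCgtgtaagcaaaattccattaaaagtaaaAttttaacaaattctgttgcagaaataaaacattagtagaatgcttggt
Slc22a30: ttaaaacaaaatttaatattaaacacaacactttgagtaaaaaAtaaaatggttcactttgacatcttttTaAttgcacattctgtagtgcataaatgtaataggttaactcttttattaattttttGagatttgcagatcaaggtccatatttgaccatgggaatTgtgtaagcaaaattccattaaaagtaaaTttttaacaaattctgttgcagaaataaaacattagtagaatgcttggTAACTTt

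The windows were searched on both strands and at any position for 3 motifs. These were AGGTCA, the repeat unit of nuclear receptor sites, TATAAA, the letters of the TATA box, and TTCNNNGAA, the site of STAT factors. The 35 genes with an entry gave 40 windows, as some have several starts. AGGTCA was found in 5 of 40 member windows and in 14.0% of all 32851 windows of this length. TATAAA was found in 6, of 5 genes, and in 12.4%, and TTCNNNGAA in 7 and in 7.02%. The matches are letters only and show no binding. Slco1b2 was the only member whose window held all of these motifs, Slco1a1 held AGGTCA and TATAAA, and Slc22a26 held TTCNNNGAA. The TATAAA matches of Slco1b2 began 234 and 227 bases before the start. Those of Slco1a1 lay on the other strand, as TTTATA, from 209 and 99 bases before it. Whether any of these acts as a TATA box was not tested. These windows are shown for the 8.85-fold lower Slco1b2, its higher neighbour Slco1a1 and the lowest gene, Slc22a26, at chr6:141629268-141629517 (plus strand), chr6:141946963-141947212 (minus strand) and chr19:7802668-7802917 (minus strand). Capitals mark the motifs on either strand.
Slco1b2: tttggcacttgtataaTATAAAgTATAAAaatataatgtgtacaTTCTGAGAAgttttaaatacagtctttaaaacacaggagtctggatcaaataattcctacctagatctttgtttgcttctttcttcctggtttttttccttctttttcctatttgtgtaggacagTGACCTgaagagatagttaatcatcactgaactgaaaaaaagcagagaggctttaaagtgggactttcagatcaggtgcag
Slco1a1: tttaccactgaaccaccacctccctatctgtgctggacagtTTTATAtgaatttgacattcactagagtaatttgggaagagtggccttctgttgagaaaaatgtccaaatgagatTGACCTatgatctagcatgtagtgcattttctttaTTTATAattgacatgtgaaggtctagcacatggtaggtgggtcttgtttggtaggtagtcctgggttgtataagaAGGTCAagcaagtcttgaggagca
Slc22a26: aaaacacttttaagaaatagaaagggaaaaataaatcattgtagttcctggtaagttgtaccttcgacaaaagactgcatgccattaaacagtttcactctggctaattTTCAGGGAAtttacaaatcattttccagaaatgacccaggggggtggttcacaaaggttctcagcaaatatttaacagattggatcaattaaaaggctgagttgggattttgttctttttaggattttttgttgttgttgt

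Other genes of hepatic transport were read from lists of known genes. Of 13 measured bile salt and drug transporters outside the families, 1 was at least 4-fold lower, 1 at least 4-fold higher and 11 lay between, with a median log2 difference of -0.66. Each single call is 7.69% of the list, near the 5.57% and 5.59% of all genes. Slc10a1, the sodium-dependent bile salt carrier of the same membrane as Slco1b2, had intensities of 153000 in MHs and 170000 in the Sox9+EpCAM- sample, a difference of -0.43. The gene past 4-fold upwards was Abcc4, a basolateral efflux pump, at least 4.32-fold higher, and that past 4-fold downwards was Abcg5, a sterol pump, 4.47-fold lower. Of 14 transcription factors and nuclear receptors known to act on transporter genes, 1 was at least 4-fold lower, or 7.14% against 5.57% of all genes, and none at least 4-fold higher. This was Nr1i3, the receptor CAR, with a difference of -3.32, while Hnf4a had -0.23.

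Of the 12 members past 4-fold, 12 kept their direction in each alternative that gave a value and 4 stayed past 4-fold in all, namely Slc22a26, Slc22a28, Slco1b2 and Slco2b1. Under normexp background correction, 5 members were at least 4-fold lower and 0 higher, against 660 lower and 612 higher among all genes. A further scaling used 5 genes of proteins secreted by hepatocytes (Alb, Ttr, Apoa1, Apob and Trf), whose median difference was -0.73. These 5 had the smallest differences of the 10 hepatocyte markers, whose median was -1.06. Relative to the 5 genes, 4 members were at least 4-fold lower and 3 higher, against 636 and 2566 of all genes. Slc22a4 and Slc22a20 fell short of 4-fold under normexp correction and under scaling to Gapdh or to the secreted protein genes, and Slc22a30 under those scalings only. Slc22a16, Slc22a29 and Slco5a1 fell short under normexp correction and the secreted protein scaling. Of the higher pair, Slc22a5 fell short under normexp correction and in the deposited table, and Slc22a15 under normexp correction and with the median of its probes.

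**Figure D5:**
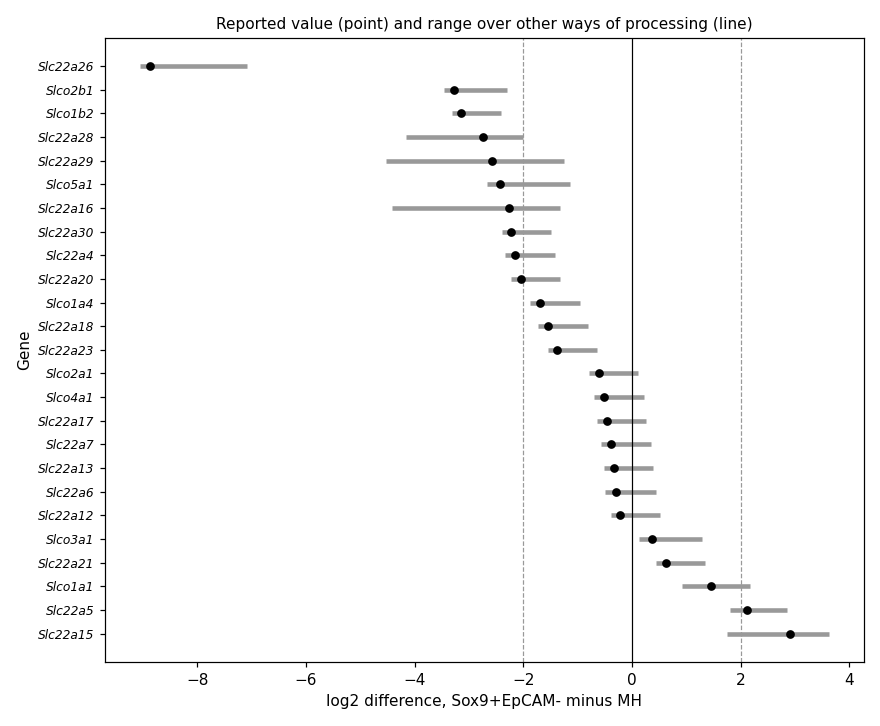
Reported log2 difference (black points) and its lowest to highest value over up to 11 other ways of processing (grey lines) for 25 Slc22 and Slco genes with a value (vertical axis), with dashed lines at 4-fold. The lines of Slc22a26, Slc22a28, Slco1b2 and Slco2b1 stay past 4-fold.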

How the data were processed

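Total RNA of 1 sample of MHs and 1 of Sox9+EpCAM- cells was labelled with Cy3 and read on 1-colour Agilent arrays. The authors deposited the spot intensity from Feature Extraction 10.7.3.1, background-subtracted and detrended, with surrogate values in use for dim spots, but not normalized between arrays, with probe positions on mm9. They also deposited a table of ratio values, found here to be the processed intensity over the median of the array. Samples were grouped by their cell type labels.

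Here the log2 of each deposited intensity was centred on the 75th percentile of its array. Outlier-flagged spots were dropped from both arrays, repeat spots averaged, and a gene was represented by its brightest probe over both arrays. Where a probe was detected on 1 array only, the other side was set to its own signal or to the dimmest detected signal of that array, whichever was larger, and the fold is a bound. With 1 array per group no test was made, the number of arrays limits the precision, and a 4-fold difference was the rule. The rule for naming was that each Slc22 and Slco gene be named, but the values of 1 member, which stays in the counts and medians, are not reported here. The members and gene lists were chosen with earlier results of these data known. Python 3.11.15, pandas 2.3.3, numpy 2.4.6, Biopython 1.88, R 4.3.3 and limma 3.58.1 (normexp with an offset of 50) were used, and the procedure was tested on simulated data. The alternatives changed the background correction, the scaling, the probe of a gene, the outlier spots, the bound, the filter on dim probes and the threshold.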

Additional observations from a re-analysis of the deposited data

How the results depend on the processing

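No paired analysis was possible because a single array stands for either group, and for the same reason leaving out a replicate and a slide block were not run. Of 283 values of single members under the alternatives, 39 changed by over 1.5-fold and 0 of those past 4-fold changed sign, while 8 members within 4-fold did so under the secreted protein scaling. The number of members at least 4-fold lower was 10 as reported, 5 under normexp correction and 4 relative to the secreted protein genes. The number at least 4-fold higher was 2 as reported, 0 under normexp correction, 1 in the deposited table and 1 with the median of all probes. With 10-fold as the threshold, 1 member was lower and 0 were higher. The median log2 difference relative to the secreted protein genes was -0.26 over members measured on at least 1 array and 0.21 over those on both, against -0.99 and -0.51 as reported. That setting was chosen after seeing the data, and it shifts every value by 0.73 by its construction. This shift is over 1.5-fold, so all 26 members with a value are among the 39 changes. Scaling to Gapdh shifted the median of all genes by 0.27 and the deposited table by -0.18. Lower calls made up 83.3% of member calls as reported and 57.1% relative to the secreted protein genes, 90.9% in the deposited table and 100% under normexp correction. Among all genes the 4-fold calls were 1309 upwards and 1304 downwards, 612 and 660 under normexp correction, 2566 and 636 relative to the secreted protein genes. The other moves of single members came under normexp correction, without the bound or with another choice of probe, and were not tested further. Signal over background limits Slc22a16, Slc22a29 and Slco5a1, whose Sox9+EpCAM- levels are bounds.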
